A study of Homo sapiens with 4 samples.

Results

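Nonsense-mediated decay factors are the proteins that recognise and destroy mRNAs with a premature stop codon, and 9 of their genes were followed here: UPF1, UPF2, UPF3A, UPF3B, SMG1, SMG5, SMG6, SMG8 and SMG9. They were chosen by gene symbol, through the Ensembl identifiers of the deposited tables, and 9 of 9 had values among the 29286 genes listed. The values come from bulk RNA sequencing of the HCT116 line, which was established from a human colorectal carcinoma, with 2 libraries in each of 2 groups. Control cells expressed a control short hairpin, called shNC here and shNC2 by the titles, and knockdown cells one against WDR43 (shWDR43), a nucleolar protein of small ribosomal subunit assembly. All cells had received lentivirus (48 h) followed by puromycin selection (3 days), and no uninfected cells are among these libraries. The labels name 1 hairpin per group and are silent on whether replicates were separate cultures, so p-values reflect the spread of these libraries alone, and that may be technical. The level of WDR43 itself was not analysed here, as no value of it was at hand, so the extent of knockdown is unknown.

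In this pathway a ribosome that stops too early leaves the helicase UPF1 on the mRNA, where the kinase SMG1 phosphorylates it. SMG8 and SMG9 bind SMG1 and restrain it, UPF2 and UPF3B link UPF1 to the exon junction complex that splicing leaves behind, and UPF3A is a paralog of UPF3B. Phosphorylated UPF1 recruits SMG6, an endonuclease, and SMG5, an adaptor for general decay enzymes. The mRNAs of several of these factors are known to be decay substrates themselves, and so are mRNAs of stress-response genes with upstream reading frames.

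The deposited values were read as FPKM, fragments normalised to transcript length and library total, going by their range. Library sums lay between 393582 and 413758, and the number of reads behind a value is unknown. Bulk values are shares of a library, so a change of RNA per cell in all genes cannot be told apart from none. Mitochondrially encoded genes held 26.8% and 25.5% of the summed values in the shNC libraries, against 24.6% and 23.9% in shWDR43. The part of this in the differences of other genes was not tested. The epithelial marker EPCAM was at 155 to 181 FPKM. Among the fibroblast, immune and endothelial markers with values, DCN, LUM, CD14, CD79A, PECAM1, VWF and CDH5 were at or below 0.218 FPKM in every library. The fibroblast marker COL1A1 was at 5.69 to 7.80 FPKM. Of the 6 epithelial markers, 4 had a positive and 2 a negative log2 difference between shWDR43 and shNC. By the test described below 2 were called higher (KRT8 and CLDN4), where 4.79% of all tested genes were. That count was 1 under median-ratio scaling, and 0 under upper-quartile scaling or with no filter on low values.

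None of the 9 decay factors passed the test between shWDR43 and shNC, and their mean levels in shWDR43 were 0.796 (UPF2) to 1.19 (SMG5) times those in shNC. The test was limma on log2(FPKM + 1) with Benjamini-Hochberg adjustment over the 13303 genes that reached 1 FPKM in 2 or more libraries. It called 0 of 9, where 6.26% of all tested genes were called. Of all genes 637 (4.79%) were called higher and 196 (1.47%) lower, a split that became 295 to 223 under median-ratio and 194 to 182 under upper-quartile scaling. All 9 passed the low-value filter in every library. At an unadjusted p below 0.05 there were 5 of 9, with UPF1 and SMG5 toward higher and UPF2, SMG6 and SMG9 toward lower values, against 26.4% of all genes (17.8% higher and 8.63% lower). That count was 3 of 9, with 0 higher, under either scaling. Of all genes, 3374 of 13310 (1690 higher) had such a p-value under median-ratio scaling. Under upper-quartile scaling 3299 of 13309 genes did (1542 higher). With the replicate block the count was 1 of 9, with 0 higher, against 2992 of 13303 of all genes (1970 higher). Fits with a library left out leave 1 library in a group and are not used for this count. For the 5 with all libraries the shWDR43 and shNC libraries did not overlap, which held for 57.3% of all genes (35.8% higher and 21.5% lower). The median log2 difference of the 9 was -0.14, against 0.05 for all tested genes, and 6 of 9 differences were negative. This median was -0.0497 and -0.0504 without shNC replicate 1 and 2, and -0.197 and -0.0651 without shWDR43 replicate 1 and 2. The 9 values together summed to 138 and 129 FPKM under shNC, against 124 and 125 under shWDR43.

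The count of 0 of 9 was also found under other settings, beside the share of all genes that each called. That share was 6.08% with a pseudocount of 0.1, 0.0631% with no filter and 12.2% with a filter at 5 FPKM. It was 3.89% and 2.83% under median-ratio and upper-quartile scaling, 5.49% with robust settings off and 4.23% with a replicate block. Without shWDR43 replicate 1 or 2 it was 2.88% or 3.42%, again with 0 of 9. In 3 fits 1 of 9 was called: UPF2 without shNC replicate 1 (13.6% of all genes) and with a crossed block chosen after seeing the data (14.7%), and SMG1 without shNC replicate 2 (19.8%).

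**Figure D1:**
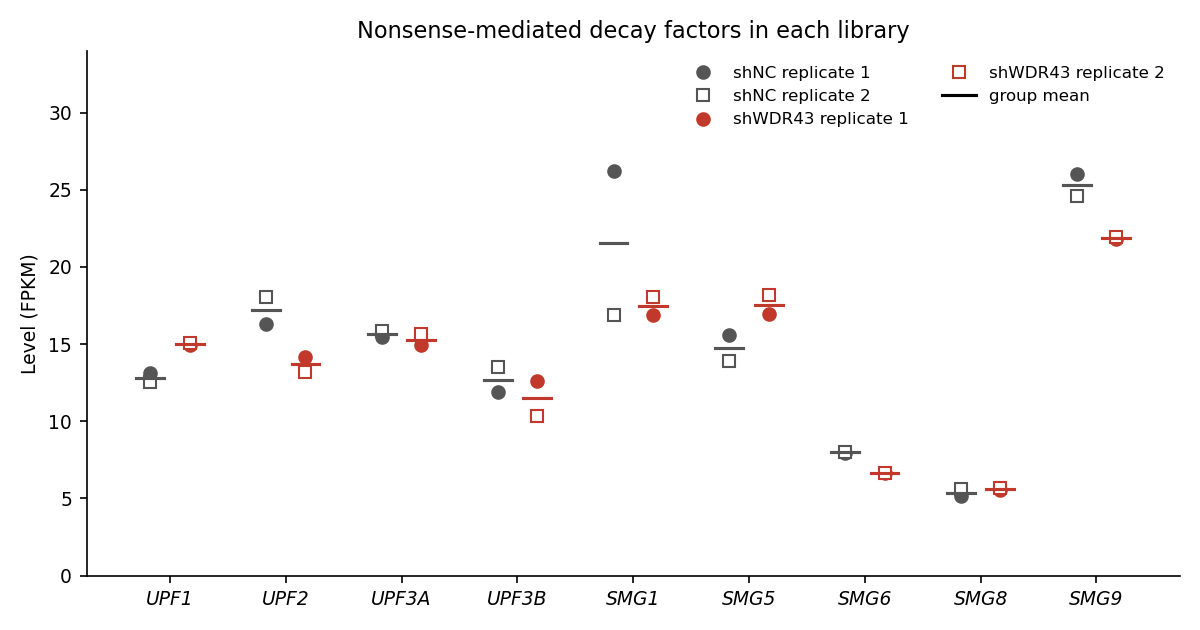
Level of each decay factor in FPKM (vertical axis, from 0) in each library; circles and squares are replicates 1 and 2, grey is shNC, red is shWDR43, and bars are group means. The groups are apart for UPF1, UPF2, SMG5, SMG6 and SMG9 and overlap for UPF3A, UPF3B, SMG1 and SMG8, and shNC replicate 1 is high for SMG1 at 26.2 FPKM.

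The 95% intervals of the 9 log2 differences ran from -0.67 at the lowest to 0.46 at the highest, which on the FPKM + 1 scale is 0.629 to 1.37 times the control level. The lower bound belongs to SMG1 and the upper bound to SMG5. Intervals of UPF3A (0.852 to 1.12 times) and SMG8 (0.887 to 1.23 times) were among those that include no difference, together with those of UPF3B and SMG1. The other 5 intervals exclude 0 before adjustment for the number of genes tested.

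**Figure D2:**
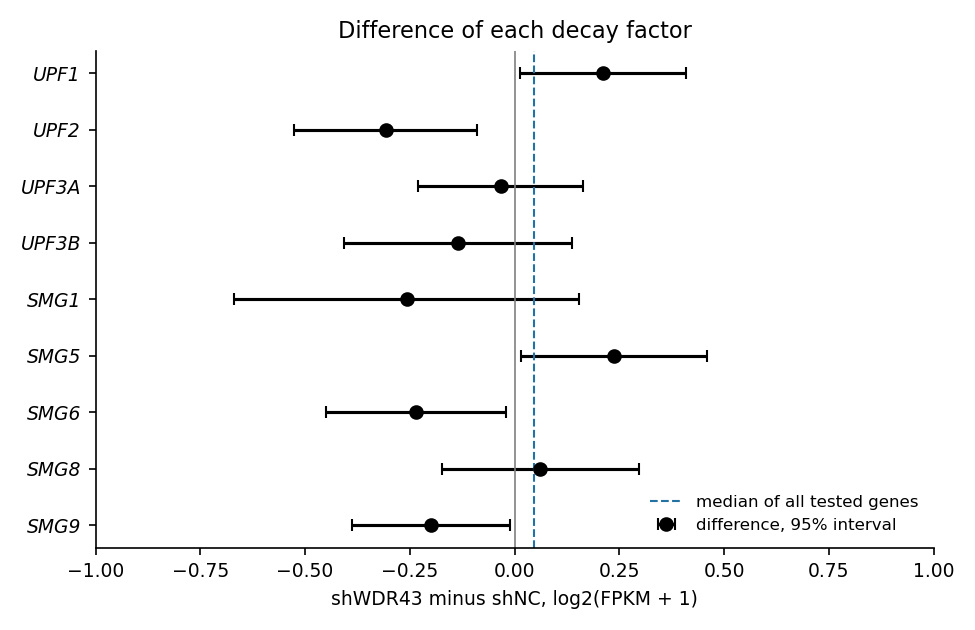
Difference of each decay factor between shWDR43 and shNC on the log2(FPKM + 1) scale (horizontal axis), with 95% intervals from limma not adjusted for multiple testing; the dashed line is the median of all tested genes, 0.05. UPF1 and SMG5 lie to the right of 0, UPF2, SMG6 and SMG9 to the left, and the SMG1 interval is the widest.

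UPF1, the ATP-dependent RNA helicase at the centre of the pathway (ENSG00000005007, chromosome 19, 18831938 to 18868236, plus strand, GRCh38 with GENCODE release 29, as for all positions below), was at 13.1 and 12.6 FPKM in the shNC libraries and at 14.9 and 15.05 FPKM in the shWDR43 libraries. Both shWDR43 values were above both shNC values, with replicates within each group close together. The group means were 12.8 ± 0.386 and 15.0 ± 0.0844 FPKM (SD, n = 2 per group), a ratio of 1.17. The log2 difference of 0.21 ± 0.08 (SE) did not pass (limma, adjusted p = 0.168).

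UPF2, the adaptor that binds UPF1 and UPF3B (ENSG00000151461, chromosome 10, 11920022 to 12043170, minus strand), had the smallest p-value of the 9. It read 16.3 and 18.1 FPKM under shNC, against 14.2 and 13.2 under shWDR43. Both knockdown libraries were below both controls. The log2 difference was -0.31 ± 0.09 (limma, adjusted p = 0.0906), and 1759 of the 13303 tested genes had a p-value as small. Without shNC replicate 1 it passed, at -0.38 (adjusted p = 0.0346), in a fit that called 13.6% of all tested genes. Its main coding transcript carries 13 ATG triplets in the 474 bases before the start codon, the most among the 9. UPF1, UPF3A, UPF3B, SMG6 and SMG8 had 0, and SMG1, SMG5 and SMG9 had 1 each.

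The paralogs UPF3A and UPF3B both bind UPF2 and the exon junction complex. UPF3A (ENSG00000169062, chromosome 13, 114281584 to 114305817, plus strand) had 15.5 and 15.9 FPKM under shNC, against 14.9 and 15.7 under shWDR43. Its groups overlapped, and the log2 difference was -0.03 ± 0.08. UPF3B (ENSG00000125351, chromosome X, 119805311 to 119852998, minus strand) was at 11.9 and 13.5 FPKM against 12.6 and 10.4 FPKM, so that the log2 difference was -0.14 ± 0.12 (limma, adjusted p = 0.4998). The shWDR43 libraries held both a middle value and the lowest value of UPF3B, so its groups overlapped too. UPF3B stood at 0.768 and 0.852 of the UPF3A level in shNC and at 0.846 and 0.663 in shWDR43. These per-length ratios overlapped between groups, at 0.810 ± 0.0592 and 0.754 ± 0.129 (SD, n = 2 per group). With 2 libraries against 2 an exact permutation test cannot go below p = 0.33, so none was run. The main mRNAs of UPF3A and UPF3B share 0 windows of 100 bases, whereas 25.7% of such windows of UPF3A occur in a transcript of its pseudogenes UPF3AP1 or UPF3AP2 and 0 in UPF3AP3. These 3 pseudogenes were at or below 1.22 FPKM in every library.

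SMG1, the kinase that phosphorylates UPF1 (ENSG00000157106, chromosome 16, 18804853 to 18926454, minus strand), was the least certain of the 9. It had 26.2 and 16.9 FPKM under shNC, against 16.9 and 18.1 under shWDR43. Only shNC replicate 1 stood apart, and the other 3 libraries lay close together. The log2 difference was -0.26 ± 0.18 with all libraries (limma, adjusted p = 0.391), 0.04 without shNC replicate 1 (adjusted p = 0.762) and -0.56 without shNC replicate 2 (adjusted p = 0.00671). The fit without shNC replicate 2 called 19.8% of all tested genes. The gap between the shNC libraries was 0.60 on the log2 scale, and 1.98% of tested genes had one as large.

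SMG1 also has pseudogenes with stretches of identical sequence, so its reads cannot be assigned with certainty. Of the 100-base windows of its main mRNA, 10.9% occur without change in a transcript of SMG1P1 to SMG1P7. With up to 8 mismatches per 100 bases, SMG1P1, SMG1P3 and SMG1P5 matched 28.9%, 27.3% and 27.5% of that mRNA, and 38.6%, 38.3% and 38.2% of its coding part. A coding stretch in exon 2 (chr16:18896830-18896929, minus strand, GRCh38) is shown as one where reads are hard to assign, not as typical of the whole. It was picked as the coding window with the fewest differences from the 3 pseudogenes that passed the filter, given at least 1 difference from each. Windows identical to any of these 3, where reads are harder still to assign, could therefore not be picked. The sequences are from the GENCODE release 29 transcripts, read 5′ to 3′, with the single base that differs in capitals.
SMG1: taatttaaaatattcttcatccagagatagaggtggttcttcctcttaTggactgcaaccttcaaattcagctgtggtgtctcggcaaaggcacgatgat
SMG1P1: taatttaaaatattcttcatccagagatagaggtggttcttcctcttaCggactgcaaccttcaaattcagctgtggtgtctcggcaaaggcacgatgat
SMG1P3 and SMG1P5 have the same 100 bases as SMG1P1 there. SMG1P1 had 5.35 and 2.88 FPKM under shNC, against 2.28 and 2.56 under shWDR43. SMG1P3 was at 7.54 and 3.13 FPKM against 1.66 and 3.39 FPKM, and SMG1P5 at 2.29 and 1.06 FPKM against 0.907 and 0.936 FPKM. As for SMG1, shNC replicate 1 was the highest library for each of the 3, and none passed the test (limma, adjusted p = 0.162, 0.275 and 0.248 in that order). The other 4 SMG1 pseudogenes were at or below 1.06 FPKM in every library.

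The difference between the shNC libraries moved with exon length over all genes. The 13234 tested genes with an annotation were put in 5 classes of equal size by the summed length of their exons. The median log2 difference of shNC replicate 1 minus replicate 2 was -0.10 in the shortest class (73 to 2507 bases) and 0.15 in the longest (7970 to 46064 bases), with a Spearman correlation across genes of 0.346. Between the shWDR43 libraries the medians were 0.04 and -0.04 for the same classes. SMG1, with 25988 exon bases, is the longest of the 9, followed by SMG6 with 10554, and SMG6 differed by -0.01 between the shNC libraries. The part of exon length in the SMG1 value was not tested.

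**Figure D3:**
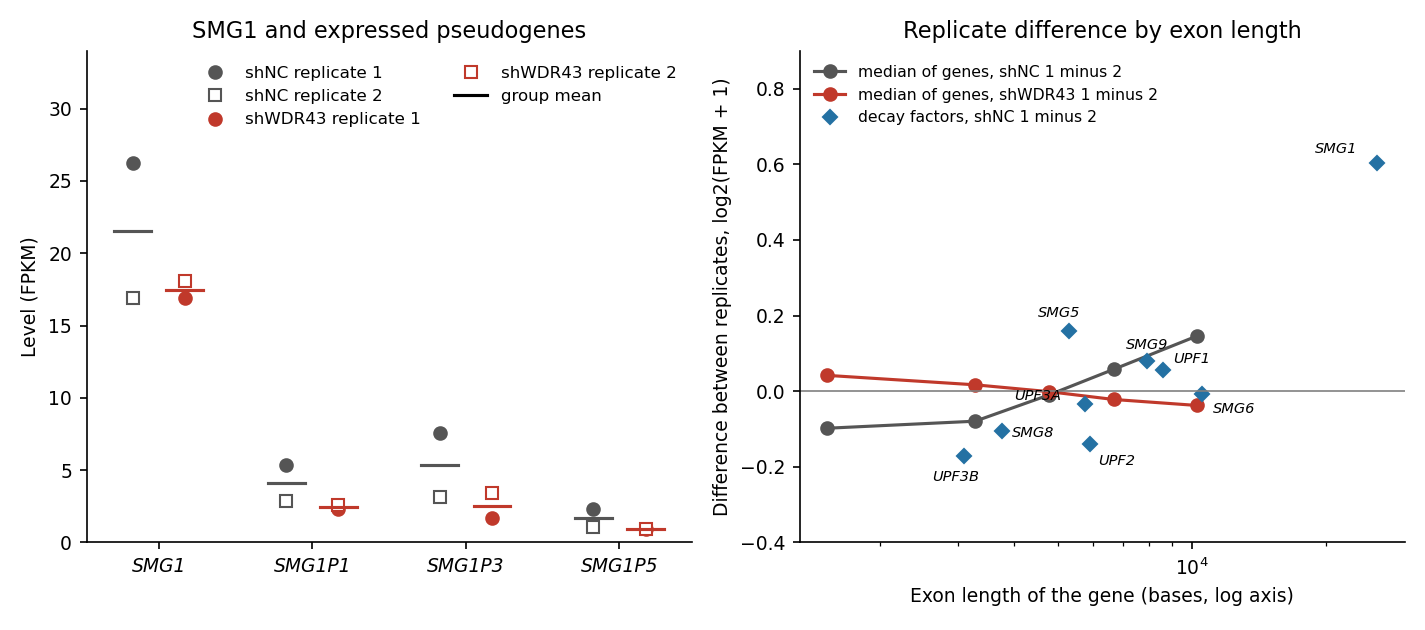
Left, levels in FPKM of SMG1 and its pseudogenes SMG1P1, SMG1P3 and SMG1P5 in each library, with group means as bars: shNC replicate 1 (filled grey) is the highest point for each. Right, difference between the replicates of a group on the log2(FPKM + 1) scale against exon length (log axis), as medians of all tested genes in 5 classes of length and as diamonds for the decay factors, where SMG1 lies at 0.60 and the shNC medians go from -0.10 to 0.15.

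SMG8 and SMG9 form a complex with SMG1. SMG9 (ENSG00000105771, chromosome 19, 43727992 to 43754990, minus strand) had the highest level of the 9 in both groups, with 26.03 and 24.6 FPKM under shNC against 21.8 and 21.95 under shWDR43. Both knockdown values were below both control values. The means were 25.3 ± 1.01 and 21.9 ± 0.0844 FPKM (SD, n = 2 per group), and the log2 difference of -0.20 ± 0.08 missed the threshold (limma, adjusted p = 0.168). SMG8 (ENSG00000167447, chromosome 17, 59209400 to 59215247, plus strand) had the lowest level, with 5.13 and 5.59 FPKM under shNC against 5.56 and 5.70 under shWDR43. Its groups overlapped, and its log2 difference of 0.06 was 0.01 after median-ratio scaling and 0.00116 after upper-quartile scaling. A second annotated gene, ENSG00000265303, covers SMG8 on the same strand over 5827 bases, and no value of it was used here.

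The effectors SMG5 and SMG6, which act after UPF1 is phosphorylated, lay on opposite sides of 0. SMG5 (ENSG00000198952, chromosome 1, 156249224 to 156282825, minus strand) had 15.6 and 13.9 FPKM under shNC, against 16.9 and 18.2 under shWDR43, so its groups did not overlap. The log2 difference was 0.24 ± 0.10 (limma, adjusted p = 0.165). SMG6 (ENSG00000070366, chromosome 17, 2059839 to 2303771, minus strand) had 7.96 and 8.004 FPKM under shNC, against 6.63 and 6.62 under shWDR43. The SMG6 replicates were the closest of the 9 within both groups, at 7.98 ± 0.0341 and 6.62 ± 0.000926 FPKM (SD, n = 2 per group), and the knockdown level was 0.830 of the control level. Its log2 difference was -0.24 ± 0.09 (limma, adjusted p = 0.157). limma moves each gene's spread toward that of all genes, so this error is wider than the replicates of SMG6 alone would give. The serine racemase gene SRR overlaps the start of SMG6 by 389 bases on the opposite strand. SRR had 4.56 and 4.41 FPKM under shNC, against 3.34 and 2.92 under shWDR43 (log2 difference -0.41, limma, adjusted p = 0.0681), and whether counting used strand was not stated. Other genes that overlap SMG6 or SMG1 were at or below 0.416 FPKM where they had values.

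**Figure D4:**
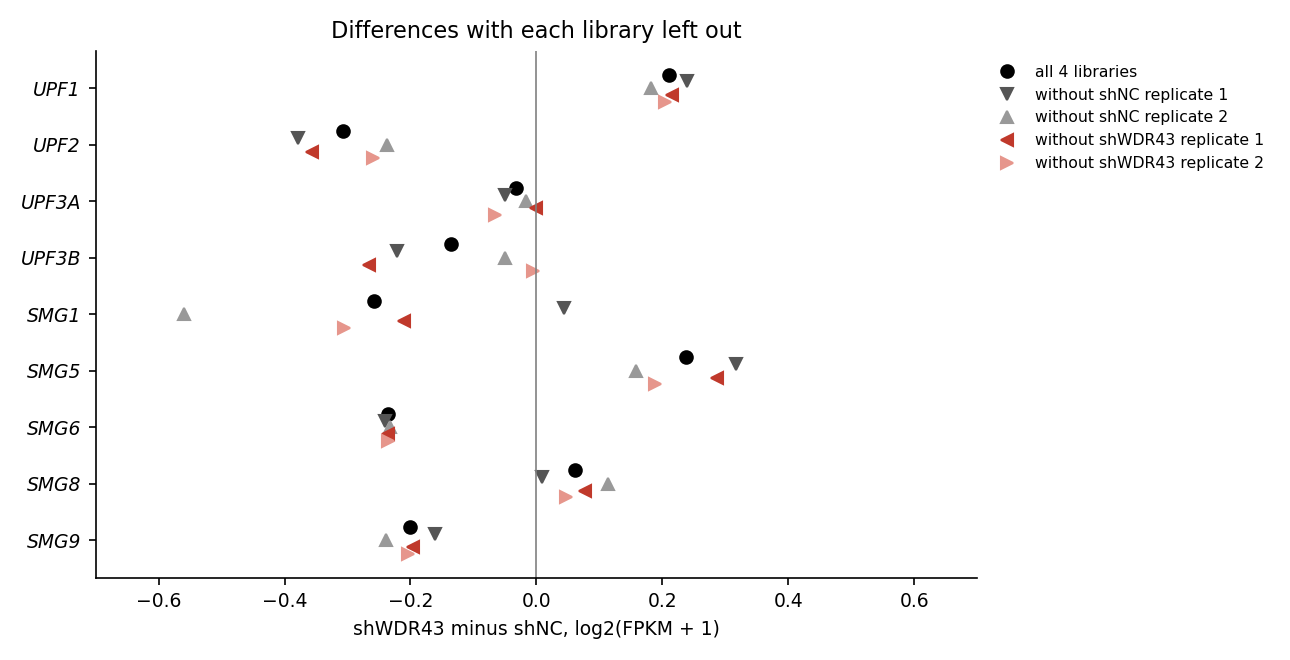
Difference of each decay factor between shWDR43 and shNC on the log2(FPKM + 1) scale (horizontal axis) with all 4 libraries (black) and with each library left out in turn. SMG1 goes from -0.56 to 0.04 and the other 8 stay on their side of 0.

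In shNC the order of mean levels per length was SMG9 (25.3 FPKM), SMG1 (21.6), UPF2 (17.2), UPF3A (15.7), SMG5 (14.8), UPF1 (12.8), UPF3B (12.7), SMG6 (7.98) and SMG8 (5.36). In shWDR43 SMG5 was the second and UPF2 the sixth. In the shNC order the replicates of SMG9 and SMG1, of SMG1 and UPF2, of UPF3A and SMG5, and of UPF1 and UPF3B overlapped, so these neighbours did not differ beyond their spread. In the shWDR43 order this held for SMG5 and SMG1 and for UPF3A and UPF1, and SMG6 and SMG8 were below all others in both groups. By the distance of centred log2 profiles over the 4 libraries, the genes most like the median of the 9 were COPS2, SECISBP2 and RSPRY1, at root-mean-square distances of 0.0246, 0.0250 and 0.0252. That profile is nearly flat, and 412 of the 8207 genes compared lay within 0.05 of it. The 9 themselves were at 0.0487 (UPF3A) to 0.247 (SMG1), all but UPF3A beyond that distance.

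Promoters of 8 of the 9 were in the RefSeq table for GRCh38.p14, which gives 300 bases around a start site. SMG8 had no entry. For a gene with several starts the one nearest the GENCODE gene start was taken. The promoters of UPF2 and SMG5 are shown because these genes had the smallest unadjusted p-values toward lower and toward higher levels. Capitals mark the letters CACGTG, the E-box that MYC and related factors bind, in UPF2 (chr10:12043121-12043420, minus strand), and TCGCGAGA on either strand in SMG5 (chr1:156282776-156283075, minus strand).
UPF2: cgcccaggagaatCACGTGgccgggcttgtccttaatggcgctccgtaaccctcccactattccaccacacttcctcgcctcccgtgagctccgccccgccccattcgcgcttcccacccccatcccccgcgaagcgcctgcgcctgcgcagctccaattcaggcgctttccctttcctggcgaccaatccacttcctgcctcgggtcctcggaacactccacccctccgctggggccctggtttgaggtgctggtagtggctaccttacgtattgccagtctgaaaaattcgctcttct
SMG5: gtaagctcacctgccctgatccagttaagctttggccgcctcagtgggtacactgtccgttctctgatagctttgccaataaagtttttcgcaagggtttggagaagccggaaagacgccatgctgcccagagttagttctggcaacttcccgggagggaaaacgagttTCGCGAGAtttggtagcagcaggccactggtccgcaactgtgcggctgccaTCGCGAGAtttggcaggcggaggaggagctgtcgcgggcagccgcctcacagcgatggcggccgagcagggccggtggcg
The letters TCGCGAGA were searched on both strands after the promoters had been read, so their shares cannot show enrichment. They were in 3 of the 8 promoters (UPF3A, UPF3B and SMG5) and in 1.15% of 35116 promoters of the same length. Those 35116 hold every listed start of a gene. G and C made up 59.7% (SMG5) to 78.3% (SMG6) of the 8 promoters, against a median of 58.7% over all. CACGTG was in 1 of 8 and in 7.26% of all. The letters TGATGCAA, a composite site of ATF4, were in 0 of 8 and in 0.866% of all, and the palindromic core of the NRF1 site was in 1 of 8 (SMG9) and in 1.24% of all. Promoters holding TCGCGAGA belonged to genes with log2 differences of -0.03, -0.14 and 0.24 in that order.

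The counts in the related lists are to be read beside all tested genes, of which 4.79% were called higher, 1.47% lower and 26.4% had an unadjusted p below 0.05. Among 10 other factors tied to the pathway, 1 rose and 0 fell, with a median log2 difference of 0.15. RUVBL1, an ATPase of a chaperone complex that supports SMG1 and related kinases, went from 33.1 ± 1.92 to 44.1 ± 2.60 FPKM (SD, n = 2 per group; limma, adjusted p = 0.0403). RUVBL1 overlaps SEC61A1 and EEFSEC on the opposite strand, so its level is uncertain. In the exon junction complex, the mark that links splicing to decay, 1 of 9 fell and 0 rose, with a median of -0.02. This was RBM8A, the core subunit also called Y14, from 27.2 ± 1.13 to 20.6 ± 0.186 FPKM (limma, adjusted p = 0.0393). RBM8A overlaps LIX1L-AS1 on the opposite strand, so its level is uncertain.

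Termination and recycling genes had 0 of 7 tested members called by limma, and 1 at an unadjusted p below 0.05, with a median of 0.10. The nearest were ABCE1, which splits terminated ribosomes, at 0.22 (adjusted p = 0.127), and PABPC1, the poly(A)-binding protein that opposes the pathway, at -0.21 (adjusted p = 0.292). GSPT2 was listed at 0 in every library and was not tested. Of 23 general mRNA decay genes, 1 rose and 1 fell, with a median of -0.01. CNOT3, a subunit of the CCR4-NOT deadenylase, went from 19.2 ± 0.514 to 13.8 ± 0.398 FPKM (limma, adjusted p = 0.0326). SKIC8, a subunit of the SKI complex that feeds the exosome, went from 23.9 ± 1.46 to 31.2 ± 1.10 FPKM (limma, adjusted p = 0.0480). LENG1 overlaps CNOT3 and DNAJA4 overlaps SKIC8, each on the opposite strand. Of the 5 kinases related to SMG1, limma called 0, with 2 at an unadjusted p below 0.05 and a median of 0.00. MTOR had a log2 difference of 0.41 (adjusted p = 0.0644). ATM had 16.89 and 10.15 FPKM under shNC, against 8.57 and 9.60 under shWDR43, with shNC replicate 1 apart as for SMG1.

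Transcripts known as substrates of the pathway were in 3 lists. The noncoding substrates, mostly hosts of small nucleolar RNAs, had 0 of 7 called by limma, with 3 at an unadjusted p below 0.05 and a median of 0.19. SNHG12 had 12.4 and 14.5 FPKM under shNC, against 17.4 and 18.3 under shWDR43, which is 0.39 on the log2 scale (adjusted p = 0.0629), and SNHG16 had a difference of 0.30 (adjusted p = 0.104). Of 20 stress and reading-frame substrates 5 fell and 0 rose, where 1.47% of all tested genes fell and 4.79% rose. Unadjusted p-values below 0.05 (limma) were found for 10 of 20, with 3 higher and 7 lower. Over all genes these shares were 17.8% higher and 8.63% lower. This list, like the others, was chosen with earlier results of these data known, so the contrast is no evidence about decay substrates. The median was -0.03, and 0.00691 without shWDR43 replicate 2.

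The 5 that fell are listed here, and whether they share a regulator was not tested. ASNS, asparagine synthetase, had a log2 change of -1.38 ± 0.11 (limma, adjusted p = 0.00304) and SLC7A11, the cystine transporter, of -1.33 ± 0.13. CARS1, a cysteinyl-tRNA synthetase, changed by -0.75 ± 0.08 and DDIT3, the stress factor CHOP, by -0.997 ± 0.14. CHAC1, which breaks down glutathione, changed by -0.83 ± 0.17 and is named after its value was seen, since it fell outside the naming rule. Also named after their values were seen are the stress transcription factors ATF4, at -0.46 (limma, adjusted p = 0.0715), and ATF3, at 0.25 (adjusted p = 0.0928). ASNS overlaps ENSG00000226744 (log2 difference -1.40) and DDIT3 overlaps MARS (-0.48) and MBD6 (-0.88), all on the opposite strand, so their own levels are uncertain.

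Splicing factors with poison exons, alternative exons that send the mRNA to decay, had 1 of 18 that rose and 1 that fell. Their median was -0.15. An unadjusted p below 0.05 (limma) was found for 8 of 18, with 1 higher and 7 lower. Over all genes these shares were 17.8% higher and 8.63% lower. SNRPB, a core spliceosomal protein gene, went from 45.7 ± 2.28 to 61.7 ± 2.08 FPKM (SD, n = 2 per group; limma, adjusted p = 0.0334). CLK1, a kinase of splicing factors, went from 47.1 ± 0.494 to 36.8 ± 2.13 FPKM (limma, adjusted p = 0.0492). The tables hold 1 value per gene, so a shift between productive and decay-bound isoforms of one gene could not be seen. Each of the 6 calls outside the stress list (RUVBL1, RBM8A, CNOT3, SKIC8, SNRPB and CLK1) was lost without shWDR43 replicate 1 and without shWDR43 replicate 2, at adjusted p-values of 0.0899 to 0.417, and the calls of RUVBL1, SKIC8 and SNRPB were also lost under either scaling. With the replicate block all 6 were lost, at 0.0510 (CNOT3) to 0.0901 (CLK1). CLK1 was also lost under upper-quartile scaling (0.0535), and SKIC8 (0.0516) and CLK1 (0.0533) with robust settings off. The 5 stress calls held in all of these fits. With no filter on low values, ASNS alone of the 11 genes called in the related lists still passed (adjusted p = 0.0364), among 17 genes in all.

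**Figure D5:**
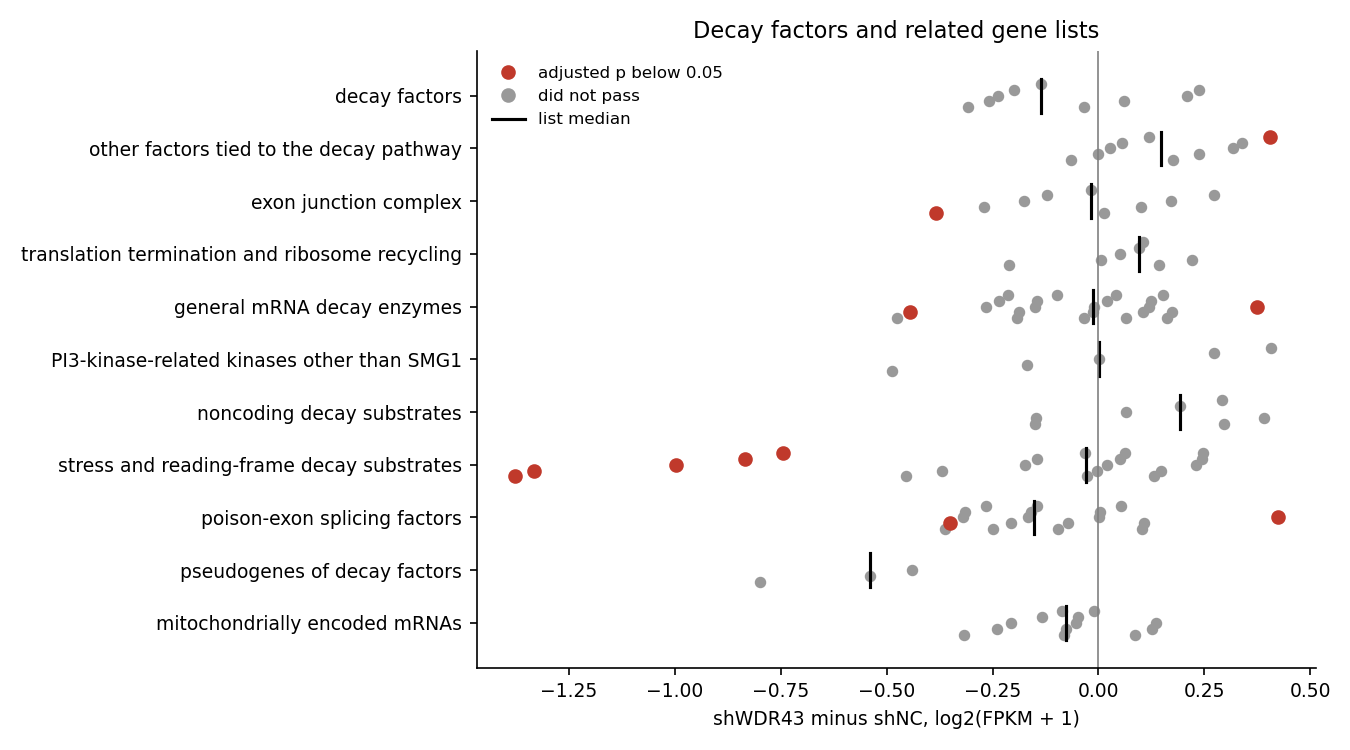
Difference between shWDR43 and shNC on the log2(FPKM + 1) scale (horizontal axis) for each tested gene. Rows are the decay factors, each related list and the mitochondrially encoded mRNAs. Red points passed the test, grey points did not, and black bars are list medians. Points are spread vertically only to separate them. No decay factor is red, and the red points farthest to the left are 5 stress and reading-frame substrates.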

How the data were processed

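RNA was sequenced from 4 HCT116 libraries, 2 with shNC and 2 with shWDR43. Per the labels' protocols, an Illumina TruSeq kit was used on 1 ug of total RNA. CASAVA 1.8, Trimmomatic, FastQC, HISAT2, RSEM and edgeR and the genome GRCh38 are named per the submitters' processing notes, without roles or order. For the authors' annotation release and use of strand, no statement is given in the sources used here. The values the authors deposited were taken as FPKM because of their range, and TPM over part of the genes cannot be told apart from this. The depth is unknown, so no counting interval is given.

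From them limma 3.58.1 in R 4.3.3 was fitted on log2(FPKM + 1) with the group as the only term, trend and robust settings, and a threshold of 0.05 on p-values adjusted over 13303 genes. Fold changes on this scale understate low genes. Identifiers were matched to symbols through a name table, and positions, exons and transcripts come from GENCODE release 29. The function was tested on simulated data. The members and lists were chosen with earlier results of these data known. Named are all 9 members, in each related list up to 4 called genes by p-value (where none was called, 2), overlapping genes and pseudogenes, and the 3 genes nearest in profile with a mean of at least 5 FPKM. Alternatives were a pseudocount of 0.1, filters at 0 and 5 FPKM, median-ratio and upper-quartile scaling, a fit without robust settings, blocking on the replicate number, and omitting each library in turn. A blank entry in each table was left out. Figures were made with matplotlib 3.10.9.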

Additional observations from a re-analysis of the deposited data

How the results depend on the processing

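The depth is unknown and each group has 2 libraries, so limits rest on the spread between replicates. The count of all genes changed, 833 in all, was 17 without a filter, 518 under median-ratio and 376 under upper-quartile scaling, and 377 to 2586 when a library was left out. The higher and lower calls split 637 to 196 as deposited, 295 to 223 under median-ratio and 194 to 182 under upper-quartile scaling. The count of decay factors changed was 0 under every setting run except 1 without shNC replicate 1 (UPF2), 1 without shNC replicate 2 (SMG1) and 1 with the crossed block (UPF2), a range of 0 to 1 over the libraries left out. UPF2 ran from -0.38 to -0.24 and SMG1 from -0.56 to 0.0436 over the same fits, and the cause was not tested. A lone library was assumed to vary like the other group. Of 102 tested genes in the 9 related lists, 11 changed, against 1 without a filter, 7 under upper-quartile scaling and 5 to 31 with a library left out. The UPF3B to UPF3A ratio differed by -0.0561 between groups, and by -0.148 to 0.0354 with a library left out.

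The replicate numbers do not pair the libraries by any label. With the replicate block 563 genes changed, 5 in the related lists and 0 decay factors. Deviations of same-numbered libraries correlated at -0.147 across genes, so a crossed pairing was added after seeing the data. With that block 1954 genes changed, 24 in the related lists, and UPF2 passed at -0.31 (limma, adjusted p = 0.0391).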

Other observations

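Ratios between decay factors that lay on opposite sides of 0 were computed after their values were seen and have no test. UPF1 stood at 0.803 and 0.694 of the UPF2 level in the shNC libraries and at 1.05 and 1.14 in the shWDR43 libraries, per length. SMG6 stood at 0.509 and 0.576 of the SMG5 level in shNC and at 0.391 and 0.364 in shWDR43. Each pair was picked for 1 gene being higher and the other lower without overlap, so that the ratios do not overlap follows from the choice. A scaling factor common to all genes of a library cancels within a ratio, but a library difference that moves with exon length does not. UPF1 has 8600 exon bases and UPF2 5906, and SMG6 has 10554 and SMG5 5304.

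The annotation classes of the 9 genes differed. GENCODE release 29 lists 1 transcript of the nonsense-mediated decay class for each of SMG1, SMG8 and SMG9 and 0 for the other 6. The annotated 3′ untranslated region of the main coding transcript ran from 237 bases in SMG8 to 4716 in SMG1, and that of UPF1 was the only one of the 9 with an exon junction in it.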
